A study of Mus musculus with 12 samples.

Results

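The peroxisome proliferator-activated receptor (PPAR) system is described through 10 of the 39017 genes counted in 12 mouse lung tumors. They were taken by symbol as 3 PPAR genes (*Ppara*, *Ppard* and *Pparg*), 3 retinoid X receptor (RXR) genes (*Rxra*, *Rxrb* and *Rxrg*), 3 coactivators (*Ppargc1a*, *Ppargc1b* and *Med1*) and the corepressor *Ncor1*. All 10 were found once in the table and all 10 passed the filter on low counts. All mice were on a C57BL6/J background and carried the alleles K-rasLSL-G12D/WT, p53Fl/Fl and CCSP-rtTA, and the KPG1 mice also carried Glut1Fl/Fl, which floxes *Slc2a1*. All received 6000 viral units of the lentivirus Lenti.TRE-PPARaD13_PGK-Cre, whose Cre starts the tumors and whose second cassette makes PPARaD13, a dominant negative PPARα, when doxycycline and rtTA are both present. Tumors labelled KP_PPARaDN and KPG1_PPARaDN came from mice given doxycycline at 625 mg/kg in the diet for 15 days, and tumors labelled KP and KPG1 from mice on a regular diet, so the drug and the transgene cannot be told apart. Each of the 4 groups held 3 tumors, taken at 26 weeks, and the RNA was that of the CD45-negative cells. By a number in the labels that is read here as the mouse, the 12 tumors came from 9 mice (2 KP, 3 KP_PPARaDN, 2 KPG1 and 2 KPG1_PPARaDN). The KP tumors were all from females and the KPG1 tumors all from males, so genotype and sex cannot be told apart on the regular diet. The rtTA is driven by the promoter of the club cell secretory protein, and the transgene is limited to cells in which that promoter works. Macrodissected tumors are mixtures, and fewer cells of a type cannot be told apart from less RNA per cell.

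PPARs are nuclear receptors that bind fatty acids and their derivatives. Each binds DNA as a pair with an RXR, which is itself the receptor for 9-cis retinoic acid and the shared partner of the thyroid hormone, vitamin D, retinoic acid and liver X receptors. Without ligand, the pair holds corepressors such as NCoR1 with histone deacetylases. With ligand, the last helix of the receptor closes over the pocket and recruits coactivators, among them the PGC-1 proteins and MED1, the subunit that ties nuclear receptors to the Mediator complex. PPARα is best known for switching on fatty acid oxidation in liver and heart, PPARδ acts broadly in lipid use and epithelia, and PPARγ drives fat cell formation and is also made by alveolar macrophages and alveolar type 2 cells.

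The last helix is encoded at the 3′ end of each coding sequence. From its name, PPARaD13 is read here as a PPARα that lacks the last 13 residues. The paper does not say which residues are missing. The ends of the 3 coding sequences are shown because, on this reading, that stretch is what the transgene lacks and the endogenous receptors keep. Each line runs 5′ to 3′ on the plus strand, read from the mm10 transcripts of GENCODE M21, with the last 13 codons in capitals, the 5 codons before them and the stop codon in lower case.
Ppara, chr15:85801202-85801258: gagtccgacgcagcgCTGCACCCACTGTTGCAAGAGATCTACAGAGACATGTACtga
Ppard, chr17:28299793-28299849: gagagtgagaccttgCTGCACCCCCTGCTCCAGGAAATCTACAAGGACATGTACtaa
Pparg, chr6:115490139-115490195: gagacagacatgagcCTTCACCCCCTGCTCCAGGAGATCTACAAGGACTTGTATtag
Of the 39 bases in capitals, *Ppara* shares 32 with *Ppard* and 30 with *Pparg*, and *Ppard* shares 35 with *Pparg*. All 3 annotated coding transcripts of each gene that hold a stop codon end in the same way. The stretch is a small part of *Ppara*, whose coding sequence has 468 codons and whose exons cover 3836 bases, so a count over the whole gene can hold reads of the transgene as well as of the mouse's own gene.

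The authors deposited whole reads per gene, 25263794 to 32654223 per tumor. Levels within 1 gene are given as CPM, the reads of the gene relative to all reads of the tumor after TMM scaling, and levels between genes as TPM, which also divides by exon length. The lowest count of a member in any tumor was 13 reads, for *Rxrg*. *Slc2a1*, the gene floxed in KPG1 mice, lay at 35.3 to 57.7 CPM in KP and at 30.2 to 64.0 CPM in KPG1 and so did not separate these labels on the regular diet, while it lay at 108 to 153 CPM in KP_PPARaDN and at 23.7 to 54.5 CPM in KPG1_PPARaDN. Groups are named by their labels throughout. All 8 markers of alveolar type 2 cells were present, with summed levels of 23794 to 77168 CPM. *Scgb1a1*, which encodes the club cell secretory protein itself, ranged from 5.55 to 159 CPM. Leukocyte markers summed to 10.004 to 65.3 CPM and macrophage markers to 7.95 to 131 CPM. None of the 4 adipocyte markers reached a mean of 1 CPM, *Lep* had no read, and their sum stayed at or below 0.546 CPM.

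Compared between genes by TPM, *Ncor1* stood highest with a mean of 91.0 ± 19.1 TPM (SD, n = 12). *Pparg* followed at 66.9 ± 20.6 TPM and was above *Rxrb* (59.2 ± 9.28 TPM) in 7 of 12 tumors. *Rxra* came next at 40.6 ± 13.2 TPM, and *Med1* had 31.8 ± 5.71 TPM. *Ppara* had a mean of 31.0 ± 57.2 TPM but a median of 11.98 TPM, and it was above *Ppard* (24.6 ± 7.04 TPM) in only 2 of 12 tumors, the KP_PPARaDN tumors 2 and 3. The lowest were *Ppargc1a* (7.91 ± 4.30 TPM), *Ppargc1b* (4.20 ± 2.23 TPM) and *Rxrg* (3.34 ± 2.79 TPM). The ranges of all 9 pairs of neighbours in this order overlapped, and the pair *Ppard* and *Ppargc1a* alone kept its order in 12 of 12 tumors.

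**Figure D1:**
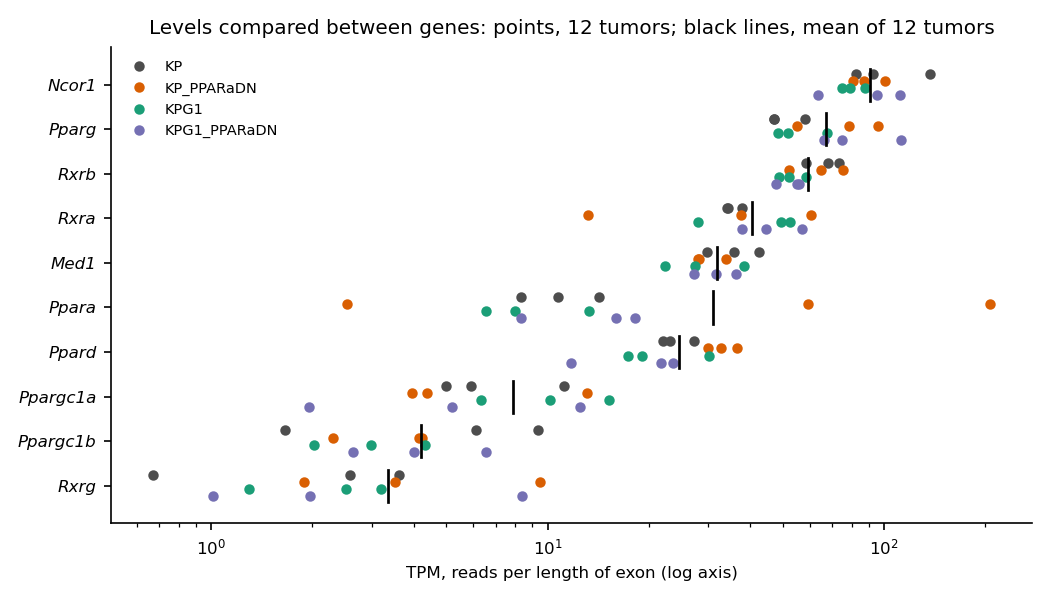
Level of each member in TPM on a log axis, with 1 point per tumor, colored by group, and a black line at the mean of the 12 tumors. *Ncor1* and *Pparg* lie at the top and *Rxrg* at the bottom, and the *Ppara* mean of 31.0 TPM is set by 2 tumors of the KP_PPARaDN group.

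The 3 PPARs differed in how evenly they were expressed. *Ppara* (ENSMUSG00000022383; mm10 chr15:85734983-85802819, plus strand) had 15.7, 10.5 and 9.54 CPM in the KP tumors and 2.71, 64.6 and 246 CPM in the KP_PPARaDN tumors. It had 7.24, 10.5 and 15.3 CPM in KPG1 and 8.90, 19.2 and 17.7 CPM in KPG1_PPARaDN. Tumors 2 and 3 of KP_PPARaDN were therefore the highest of all 12, tumor 1 of the same group was the lowest of all 12, and the KPG1 groups overlapped. The range over the 12 tumors was 90.9-fold, and the biological coefficient of variation of the fit, 0.769, was above that of 92.8% of the 16527 genes tested.

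*Ppard* (ENSMUSG00000002250; mm10 chr17:28232700-28301474, plus strand) had 50.1, 52.1 and 49.4 CPM in KP and 68.7, 63.6 and 85.5 CPM in KP_PPARaDN. In KPG1 it had 37.6, 77.3 and 43.1 CPM, and in KPG1_PPARaDN 24.5, 44.95 and 51.3 CPM. All 3 KP_PPARaDN tumors were above all KP tumors and above all KPG1_PPARaDN tumors. The KP tumors lay within 3 CPM of each other, a coefficient of variation of 2.85%, while those of KPG1 had 40.9%.

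*Pparg* (ENSMUSG00000000440; mm10 chr6:115360951-115490399, plus strand) had 40.1, 43.7 and 41.7 CPM in KP and 64.9, 80.3 and 50.6 CPM in KP_PPARaDN. In KPG1 it had 41.2, 52.2 and 59.8 CPM, and in KPG1_PPARaDN 92.3, 53.9 and 64.3 CPM. All doxycycline tumors of KP were above all regular-diet tumors of KP, and in KPG1 the groups overlapped by 1 tumor on either side. Macrophage markers (4 of 6 with a mean of at least 1 CPM), which matter here because alveolar macrophages make PPARγ, summed to 28.8 to 131 CPM in KP and 33.0 to 89.1 CPM in KP_PPARaDN, and to 17.96 to 23.5 CPM in KPG1 and 7.95 to 77.9 CPM in KPG1_PPARaDN. The part of these cells in the *Pparg* values was not tested.

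As a share of the summed TPM of the 3 PPAR genes, *Pparg* made up 55.8% to 60.9% in KP, 57.6% to 67.6% in KPG1 and 62.4% to 84.9% in KPG1_PPARaDN. In KP_PPARaDN its share ran from 18.5% to 69.1%, and that of *Ppara* from 2.22% to 69.2%. The *Ppara* share was 8.89% to 16.8% in the tumors on the regular diet and 6.30% to 17.2% in KPG1_PPARaDN, so the range of KPG1_PPARaDN took in that of both regular-diet groups. The make-up of the summed PPAR TPM thus moved most within a single group, KP_PPARaDN, where tumor 3 was mostly *Ppara* and tumor 1 mostly *Pparg*. Reads of the transgene can be counted as *Ppara* there, and TPM divides by the exon length of the mouse's own gene. These shares therefore need not be those of the tumor's own receptors.

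**Figure D2:**
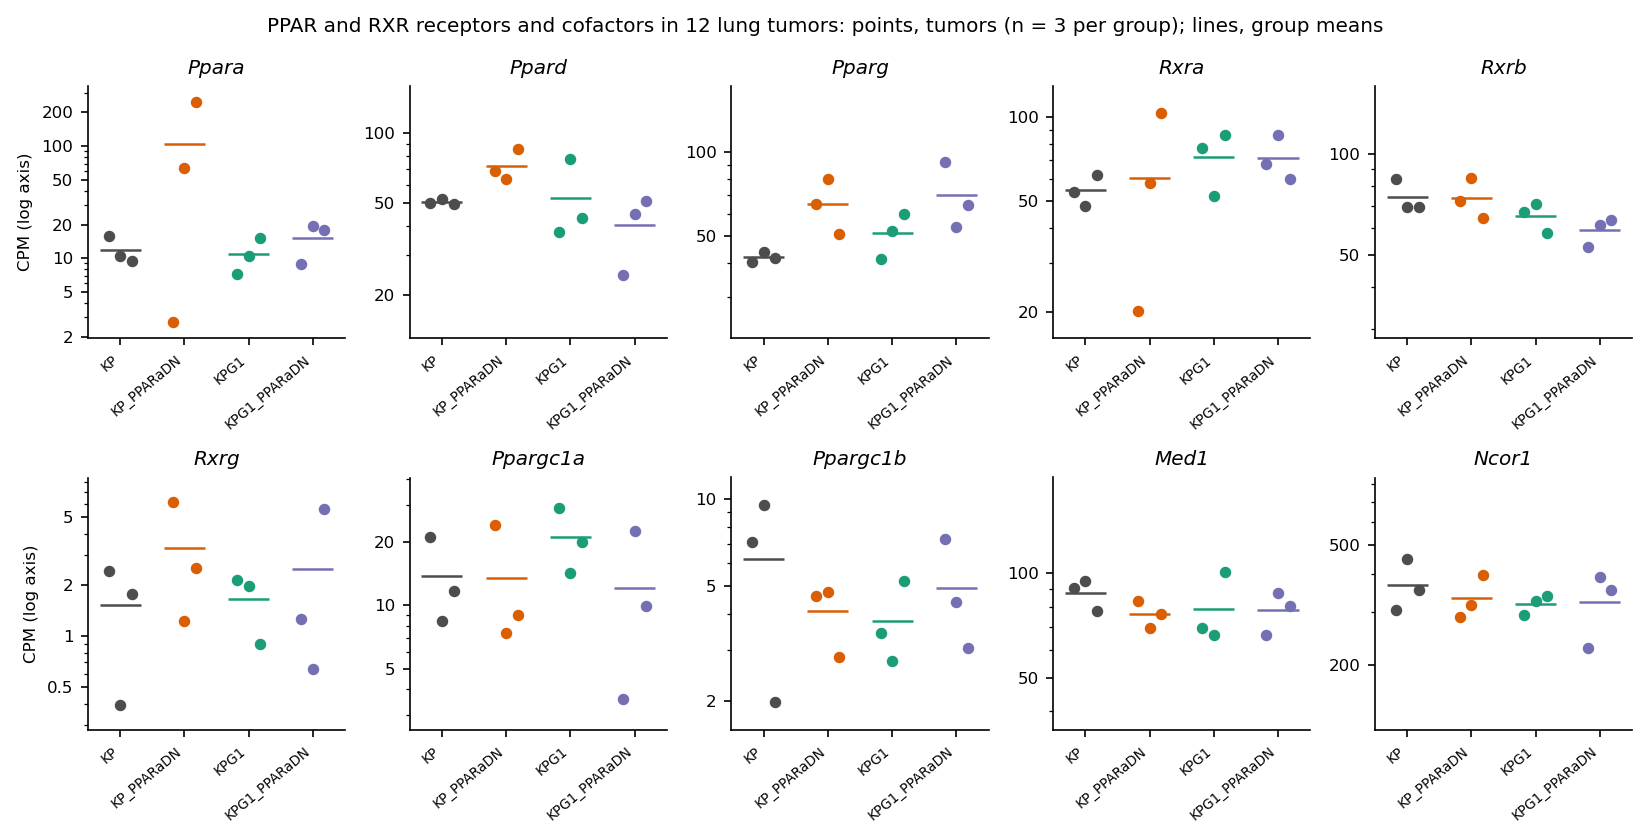
CPM of each member on a log axis, with 1 point per tumor (n = 3 per group) and a line at each group mean; the axes differ between panels. *Ppara* spreads from 2.71 to 246 CPM within KP_PPARaDN, while *Rxrb*, *Med1* and *Ncor1* stay within a 2-fold range over all 12 tumors.

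Among the RXRs, *Rxrb* (ENSMUSG00000039656; mm10 chr17:34031812-34038399, plus strand) was the most even, at 52.8 to 84.8 CPM over the 12 tumors. Its coefficient of variation in the fit exceeded that of only 2.60% of the genes tested. It had 72.2, 84.8 and 64.3 CPM in KP_PPARaDN and 52.8, 61.2 and 63.6 CPM in KPG1_PPARaDN, 2 groups that did not overlap. In KP it had 84.2, 69.2 and 69.4 CPM and in KPG1 67.0, 70.6 and 58.0 CPM, which overlapped.

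*Rxra* (ENSMUSG00000015846; mm10 chr2:27676440-27762957, plus strand) is the form that pairs with PPARs in most tissues. It had 53.9, 47.8 and 61.9 CPM in KP, 77.6, 52.1 and 86.0 CPM in KPG1, and 67.8, 86.0 and 60.0 CPM in KPG1_PPARaDN. In KP_PPARaDN it had 20.1, 58.1 and 103 CPM, so tumor 1 was the lowest and tumor 3 the highest of all 12, the same tumors as for *Ppara*. *Rxrg* (ENSMUSG00000015843; mm10 chr1:167598384-167639623, plus strand), the form of muscle and brain, was scarce. It had 2.40, 0.394 and 1.77 CPM in KP and 6.10, 1.23 and 2.51 CPM in KP_PPARaDN, and 2.12, 1.96 and 0.892 CPM in KPG1 and 1.26, 0.640 and 5.57 CPM in KPG1_PPARaDN. Only 2 tumors, both on doxycycline, exceeded 5 CPM. Cardiac muscle markers, 2 of 4 with a mean of at least 1 CPM, summed to 1.42 to 2.77 CPM in KP and 2.18 to 3.03 CPM in KPG1, and to 8.39 to 21.9 CPM in KP_PPARaDN and 6.44 to 12.5 CPM in KPG1_PPARaDN. These marker sums did not overlap between diets, and their part in the *Rxrg* values was not tested. Of the summed TPM of the RXR genes, *Rxrg* held 0.651% to 10.8% per tumor, so *Rxrb* and *Rxra* together made up most of it in every tumor.

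The coactivator *Ppargc1a* (ENSMUSG00000029167; mm10 chr5:51454250-51567726, minus strand) encodes PGC-1α, which raises mitochondrial number and oxidative metabolism. It had 21.3, 8.40 and 11.7 CPM in KP, 24.1, 7.36 and 8.98 CPM in KP_PPARaDN, 29.0, 14.3 and 20.1 CPM in KPG1, and 3.58, 22.7 and 9.91 CPM in KPG1_PPARaDN. All 4 groups overlapped, and the 12 tumors covered an 8.11-fold range. *Ppargc1b* (ENSMUSG00000033871, chromosome 18), which encodes the related PGC-1β, had 7.09, 9.52 and 1.98 CPM in KP, where the highest and the lowest of all 12 tumors both lay. Its other groups ranged from 2.85 to 4.78 CPM (KP_PPARaDN), 2.75 to 5.19 CPM (KPG1) and 3.05 to 7.30 CPM (KPG1_PPARaDN).

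*Med1* (ENSMUSG00000018160; mm10 chr11:98152154-98193293, minus strand) lay between 66.4 and 100.4 CPM in all 12 tumors. Its range was 77.9 to 94.8 CPM in KP and 69.2 to 82.9 CPM in KP_PPARaDN, and 66.4 to 100.4 CPM in KPG1 and 66.5 to 87.5 CPM in KPG1_PPARaDN. The corepressor *Ncor1* (ENSMUSG00000018501; mm10 chr11:62316426-62458541, minus strand) had 305, 449 and 355 CPM in KP and 289, 316 and 399 CPM in KP_PPARaDN. It had 293, 326 and 338 CPM in KPG1 and 228, 392 and 355 CPM in KPG1_PPARaDN. For both genes every pair of groups compared overlapped. *Ncor1* overlaps *Pigl* and *Ttc19* on the other strand, with 5508 and 3229 reads over the 12 tumors against 121507 for *Ncor1*.

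To ask what the doxycycline diet, and with it the transgene, did to the receptor system in each genotype, the counts were compared with edgeR's quasi-likelihood test over all 16527 genes tested. In KP, edgeR called 0 of 10 members at an adjusted p under 0.05, where it called 0.00605% of all genes. At an unadjusted p under 0.05 there were 2 of 10 members, *Ppara* and *Pparg*, against 11.4% of all genes, and 2 of 10 did not overlap between groups, *Ppard* and *Pparg*, against 13.3%. With only 10 genes these shares do not stand apart from the background. The log2 fold change of *Ppara* was 3.13 (standard error 1.03, 95% interval 0.87 to 5.39, adjusted p = 0.328), that of *Pparg* 0.64 (standard error 0.244, interval 0.11 to 1.18, adjusted p = 0.375) and that of *Ppard* 0.52 (standard error 0.312, adjusted p = 0.566). DESeq2 called 1 of 10 members, *Ppara* (log2 estimate 3.15, adjusted p = 0.0237), against 2.25% of all genes, and limma voom called 0, against 0.00605%. Over all alternatives the adjusted p of *Ppara* in KP ranged from 0.0237 to 0.726. The limma voom estimate for *Ppara* was 1.61 (adjusted p = 0.726). The *Ppara* difference depended most on KP_PPARaDN tumor 3: leaving out 1 tumor at a time gave estimates of 1.497, without that tumor, to 3.70. Fibroblast markers, at 113 to 241 CPM in KP and 266 to 529 CPM in KP_PPARaDN, did not overlap either, and their part was not tested.

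In KPG1, edgeR called 0 of 10 members with the diet, against 0.00605% of all genes. At an unadjusted p under 0.05 there were 0 of 10, against 10.8%, and 0 of 10 did not overlap between groups, against 20.6%. DESeq2 (1.19% of all genes) and limma voom (0%) also called 0. The log2 fold change of *Ppara* was 0.48 (standard error 0.958, interval -1.62 to 2.57, adjusted p = 0.88), an interval that reaches past 2-fold in either direction. That of *Pparg* was 0.46 (standard error 0.243, interval -0.07 to 0.99, adjusted p = 0.526), and over the alternatives it ranged from 0.099 to 0.616. Alveolar type 2 markers summed to 47924 to 77168 CPM in KPG1 and 25484 to 40636 CPM in KPG1_PPARaDN, and alveolar type 1 markers to 1707 to 2386 CPM and 643 to 1061 CPM, both without overlap, and their part in these values was not tested.

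Averaged over both genotypes, 0 of 10 members passed edgeR's test (0.0182% of all genes), 2 of 10 had an unadjusted p under 0.05 (10.1% of all genes), and 0 of 10 did not overlap (0.49%). DESeq2 (1.73% of all genes) and limma voom (0.0182%) called 0. *Pparg* had an estimate of 0.55 (standard error 0.172, interval 0.17 to 0.93, unadjusted p = 0.00816, adjusted p = 0.343), and 4 of the 6 doxycycline tumors were above all 6 on the regular diet. *Ppara* had 1.80 (standard error 0.694, adjusted p = 0.419), and 0.99 without KP_PPARaDN tumor 3. The diet effect itself was compared between genotypes by an interaction term. Its estimate was -2.66 for *Ppara* (standard error 1.37, adjusted p = 0.465) and -0.91 for *Ppard* (standard error 0.441, adjusted p = 0.445), and 0 of 10 members passed, where 0% of all genes did. Without KP_PPARaDN tumor 3 the interaction of *Ppara* was -1.02. At an unadjusted p under 0.05 there were 0 of 10 members, against 11.8% of all genes, and DESeq2 (1.73% of all genes) and limma voom (0%) called 0.

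**Figure D3:**
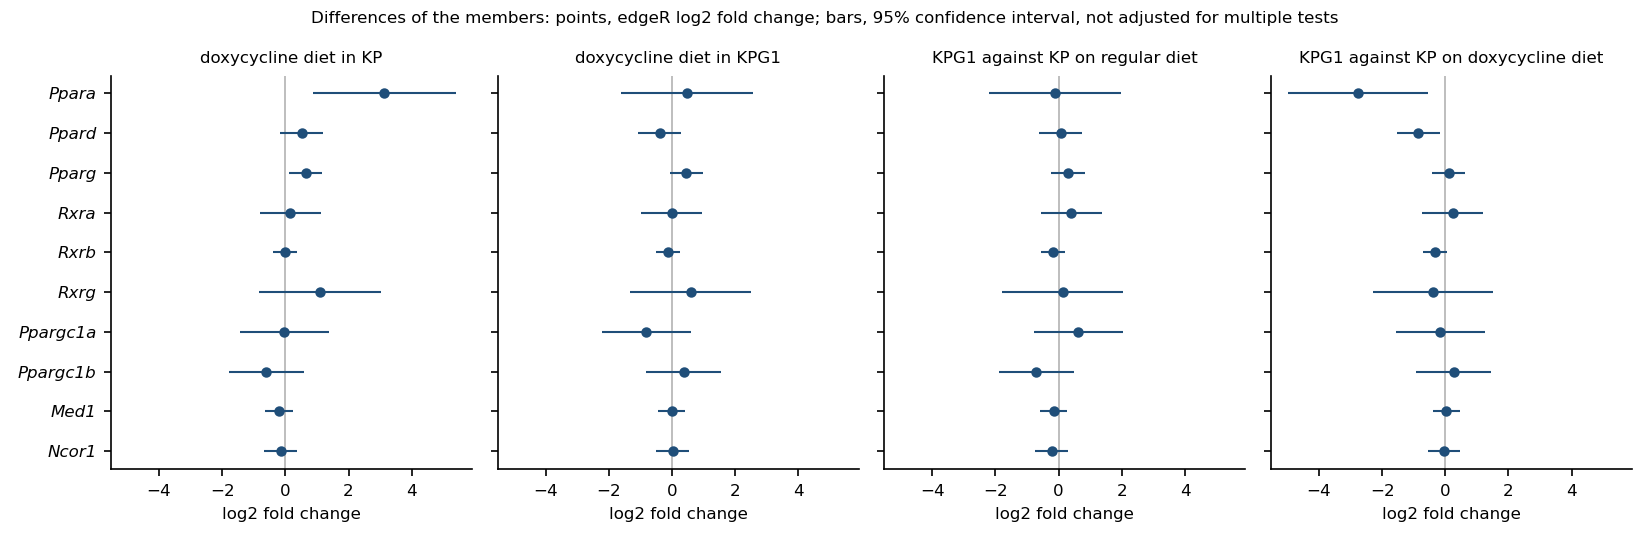
Log2 fold change of each member from edgeR in 4 comparisons, with points for the estimate and bars for the 95% interval, not adjusted for multiple tests. *Ppara*, *Rxrg* and *Ppargc1a* have wide intervals and *Rxrb*, *Med1* and *Ncor1* narrow ones near 0, and no adjusted p is under 0.05.

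The comparison of KPG1 with KP asks whether floxed *Slc2a1* goes with another receptor set. On the regular diet edgeR called 0 of 10 members (0.0363% of all genes), and 0 of 10 had an unadjusted p under 0.05 (6.23%) or did not overlap (9.95%). The lowest adjusted p of a member there was 0.841. On doxycycline edgeR again called 0 of 10 (0.0303% of all genes), 2 of 10 had an unadjusted p under 0.05 (9.69%), and 2 of 10 did not overlap (17.6%). The first were *Ppara* and *Ppard*, and the latter *Ppard* and *Rxrb*. *Ppard* was lower in KPG1_PPARaDN than in KP_PPARaDN, by an estimate of -0.85 in log2 (standard error 0.313, adjusted p = 0.492), and *Rxrb* had -0.32 (standard error 0.174, adjusted p = 0.561). *Ppara* had -2.77 (standard error 1.01, adjusted p = 0.492) with overlapping groups, and -1.14 without KP_PPARaDN tumor 3. Fibroblast markers summed to 266 to 529 CPM in KP_PPARaDN and 127 to 183 CPM in KPG1_PPARaDN, and alveolar type 1 markers to 1452 to 2825 CPM and 643 to 1061 CPM, both without overlap. The part of these cells in the *Ppard*, *Rxrb* and *Ppara* values was not tested. Averaged over diets, 0 of 10 members passed (0.0484% of all genes), 0 of 10 had an unadjusted p under 0.05 (4.53%) and 0 of 10 did not overlap (0.188%), with estimates of -1.44 for *Ppara* (standard error 0.687), -0.40 for *Ppard* (standard error 0.22) and -0.25 for *Rxrb* (standard error 0.123), all at an adjusted p of 0.976, and the *Ppara* estimate was -0.63 without KP_PPARaDN tumor 3. DESeq2 called 0 members in these 3 comparisons, against 0.321%, 0.968% and 0.236% of all genes, and limma voom 0, against 0.0303%, 0.0303% and 0.0484%.

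The members were next related to each other over the 12 tumors in log2 CPM. Of 45 pairs, 0 had an adjusted permutation p under 0.05 by Pearson's r (lowest 0.692) or Spearman's rho (lowest 0.824), and at an unadjusted p under 0.05 there were 0 for r and 1 for rho. That pair was *Rxra* and *Rxrb*, with the largest rho in size, -0.68 (permutation p = 0.0196), and r = -0.42 (permutation p = 0.181). The largest r was that of *Ppara* and *Rxra*, with r = 0.63 (permutation p = 0.051) and rho = 0.39 (permutation p = 0.209). Without the 2 tumors farthest from the median of *Ppara* it was 0.77 (permutation p = 0.032, adjusted over the pairs 0.721), and for deviations from the group means 0.91 (exact permutation within groups, p = 0.064). *Pparg* and *Ppargc1a* had r = -0.57 (permutation p = 0.0544, rho = -0.41), and this relation rested on 2 tumors, since r was 0.01 without them. *Ppard* and *Rxrb* had r = 0.55 (permutation p = 0.0654, rho = 0.57).

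Over all genes with a mean of at least 1 CPM, the 5 most like *Ppara* across the 12 tumors by Pearson's r were *Usp20* (0.87), *Ralgds* (0.87), *Ptpn1* (0.87), *Gm6286* (0.86) and *Arhgap21* (0.86), out of 14099 searched. *Gm6286*, a processed pseudogene, had 8.41 CPM in KP_PPARaDN tumor 3 and at most 1.00 CPM elsewhere. It passed the mean of 1 CPM only through that tumor, where *Ppara* was highest. Its Spearman's rho with *Ppara* was 0.47, against 0.78 to 0.88 for the others. All but *Gm6286* lie on chromosome 2, as does *Rxra*. The 5 most like *Pparg* were *Tmem136* (0.94), *Cyp2c65* (0.92), *Gm12350* (0.91), *Hook2* (0.89) and *Sf3b5* (0.86), which lie on 5 chromosomes. The 5 most like *Ppargc1a* were *St6gal1* (0.95), *Dnajc28* (0.89), *Ttc26* (0.88), *BC106179* (0.86) and *Adamts10* (0.84), and *St6gal1*, *Dnajc28* and *BC106179* lie on chromosome 16. The spans of *St6gal1* and *BC106179* overlap there on opposite strands, so they are not separate places on the chromosome.

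Because the same chromosomes recurred, each member was set beside the other genes of its own chromosome, as deviations of log2 CPM from the median of the 12 tumors, a step chosen after the data were seen. These chromosome medians were not level from tumor to tumor. The median of 1150 genes on chromosome 2 lay at -0.38 in KP_PPARaDN tumor 1, where *Rxra* lay at -1.60. The median of 717 genes on chromosome 17, which carries both *Ppard* and *Rxrb*, lay at -0.41 in KPG1_PPARaDN tumor 1, where *Ppard* lay at -1.05 and *Rxrb* at -0.37, the lowest tumor for both. On chromosome 18 the median of 354 genes reached 0.73 in KP_PPARaDN tumor 1, where *Ppargc1b* itself lay at 0.03.

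Of the 10 members, 6 went with their chromosome at an adjusted permutation p under 0.05 for Pearson's r, adjusted over the 10 relations. These were *Rxrb* (r = 0.78, permutation p = 0.00275, adjusted 0.0275), *Med1* (0.71, p = 0.00844, adjusted 0.0422), *Rxra* (0.69, p = 0.0219, adjusted 0.0438), *Ppard* (0.69, p = 0.0133, adjusted 0.0438), *Rxrg* (0.65, p = 0.0216, adjusted 0.0438) and *Ncor1* (0.64, p = 0.0264, adjusted 0.0439). By Spearman's rho the values were 0.70, 0.69, 0.35, 0.57, 0.57 and 0.79 in the same order, and *Ncor1* alone had an adjusted permutation p under 0.05 (0.0334). Without the 2 tumors of most extreme chromosome median, r was 0.52, 0.69, 0.05, 0.55, 0.51 and 0.63, with 0 adjusted p under 0.05, so the relation of *Rxra* over the 12 tumors rested on those tumors. With tumors averaged over the 9 mice, r was 0.69, 0.72, 0.86, 0.88, 0.66 and 0.56, and by exact permutation 2 of the 6 had an adjusted p under 0.05, *Ppard* (0.0161) and *Rxra* (0.044), while *Rxrb* (0.106), *Med1* (0.0704), *Rxrg* (0.11) and *Ncor1* (0.181) did not. As deviations from the group means it was 0.65, 0.73, 0.70, 0.50, 0.73 and 0.65, and by exact permutation within groups *Rxrg* (adjusted p = 0.0386) and *Ncor1* (adjusted p = 0.00772) remained under 0.05. *Ppara* (r = -0.20, rho = -0.18), *Pparg* (r = -0.07, rho = -0.22), *Ppargc1a* (r = 0.02, rho = 0.05) and *Ppargc1b* (r = 0.22, rho = 0.37) had permutation p-values of 0.511 or more for r. For genes outside the members this relation was not computed, so the count of 6 has no background share beside it. *Ppard* and *Rxrb* share the median of chromosome 17, and *Med1* and *Ncor1* that of chromosome 11, so their relations are not separate results. What moves whole chromosomes together was not tested.

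**Figure D4:**
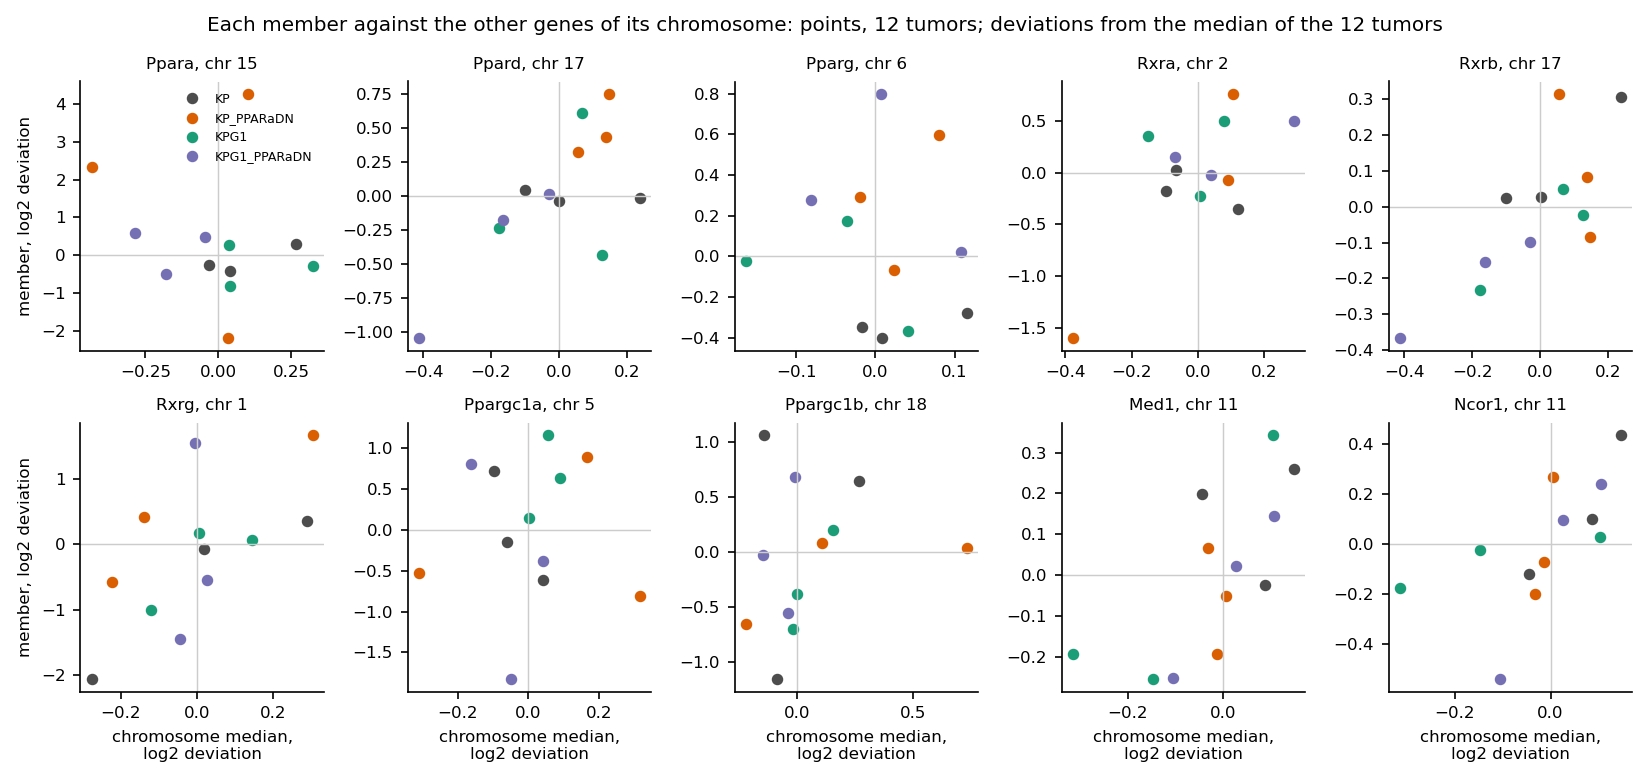
Deviation of each member against the median deviation of the other genes of its chromosome, both in log2 CPM, with 1 point per tumor, colored by group. *Rxrb* (r = 0.78) and *Med1* (r = 0.71) have the highest correlations over the 12 tumors, *Ppara* has r = -0.20, and the lowest point of *Rxra* is KP_PPARaDN tumor 1.

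Beside the members, 7 lists of genes that work with the receptors were examined. Among 34 common PPAR target genes, of which 31 were tested, edgeR called 0 in each of the 7 comparisons. With the diet in KP, 17 were higher and 14 lower with a median log2 fold change of 0.10, against -0.01 over all genes, and 4 of 31 had an unadjusted p under 0.05, against 11.4% of all genes, a share near the background. Without overlap between the groups were 4 of 31, against 13.3% of all genes. *Pex11a*, a peroxisome division factor, had 34.5, 76.3 and 32.02 CPM in KP and 13.3, 11.9 and 14.8 CPM in KP_PPARaDN (log2 fold change -1.83, standard error 0.344, adjusted p = 0.249). *Angptl4*, an inhibitor of lipoprotein lipase, had 15.3, 5.12 and 30.3 CPM in KP and 45.2, 50.0 and 52.8 CPM in KP_PPARaDN (1.55, standard error 0.528, adjusted p = 0.335). Both are textbook PPAR targets, and they differed in opposite directions. Both were named because their groups did not overlap, and neither passed the test. *Creb3l3*, a liver transcription factor, had 2.32 (standard error 0.982, adjusted p = 0.408).

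The mean log2 CPM of the target list was 4.57, 4.11 and 4.40 in KP and 4.12, 4.45 and 4.31 in KP_PPARaDN, and the groups overlapped. By this mean the tumor with the highest *Ppara*, KP_PPARaDN tumor 3, lay within the KP range. Its summed level of the list, 7282 CPM, was above the KP range of 2963 to 6279 CPM. KP_PPARaDN tumors 1 and 2 summed to 3270 and 3418 CPM, within that range. With the diet in KPG1, 14 target genes were higher and 17 lower, with a median of -0.22 against 0.02 over all genes, and 6 of 31 had an unadjusted p under 0.05, against 10.8% of all genes. Without overlap between the groups were 11 of 31, against 20.6% of all genes. The mean log2 CPM of the list was 4.41, 4.11 and 4.38 in KPG1 and 4.40, 4.46 and 4.55 in KPG1_PPARaDN, so it did not share the sign of the median. The summed level of the list, which its most abundant genes set, was 4788 to 5656 CPM in KPG1 and 2685 to 3610 CPM in KPG1_PPARaDN without overlap. *Lpl*, which frees fatty acids from lipoproteins, had 7.16, 3.65 and 15.1 CPM in KPG1 and 78.1, 16.04 and 40.2 CPM in KPG1_PPARaDN (2.37, standard error 0.694, adjusted p = 0.42). The tumors at 78.1 and 40.2 CPM came from the same mouse. That of the other KPG1_PPARaDN mouse, at 16.04 CPM, lay close to the highest KPG1 tumor. *Txnip*, an inhibitor of glucose uptake, had 1697, 833 and 1593 CPM and 484, 507 and 583 CPM in the same groups (-1.39, standard error 0.371, adjusted p = 0.42). *Scd1*, which desaturates fatty acids, was named by the same rule with -1.05 (standard error 0.757, adjusted p = 0.649). DESeq2 called *Pex11a* in KP (adjusted p = 0.000345) and *Lpl* (adjusted p = 0.035) and *Txnip* (adjusted p = 0.0317) in KPG1, and the adjusted p ranged up to 0.49, 0.999 and 0.999 over the alternatives.

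Between genotypes, the target list had 19 genes higher and 12 lower in KPG1 on the regular diet (median 0.17, against -0.03 over all genes) and 16 higher and 15 lower on doxycycline (median 0.05, against 0.01). Of the 31 tested, 6 did not overlap on the regular diet, against 9.95% of all genes, and 5 on doxycycline, against 17.6%. With an unadjusted edgeR p under 0.05 there were 3 on each diet, against 6.23% and 9.69%. *Cpt1a*, the gate of fatty acids into mitochondria, had 109, 110 and 118 CPM in KP and 191, 259 and 154 CPM in KPG1 (0.84, standard error 0.313, adjusted p = 0.785). *Ehhadh*, an enzyme of peroxisomal β-oxidation, had 10.4, 10.7 and 8.32 CPM and 16.001, 14.4 and 16.6 CPM in the same groups (0.67, standard error 0.251, adjusted p = 0.785). *Acot1* had -0.80 (standard error 0.814, adjusted p = 0.876). On doxycycline *Lpl* had 2.76 (standard error 0.705), *Pex11a* 1.18 (standard error 0.338) and *Angptl4* -0.85 (standard error 0.519), at adjusted p of 0.462, 0.462 and 0.599.

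The other lists also had 0 genes called by edgeR in any comparison, where 0% to 0.0484% of all genes were called. Of the 32 other Mediator subunits, 16 were higher and 16 lower with the diet in KP (median 0.00), with *Med12l* at 1.49, *Med13l* at 0.75 and *Med9* at -0.52, and 22 were higher and 10 lower in KPG1 (median 0.13), with *Med17* at 0.59, *Med12* at 0.84 and *Med14* at 0.65. The lowest adjusted p of a Mediator subunit was 0.407 in KP and 0.42 in KPG1. Without overlap between the diets were 8 of 32 in KP, against 13.3% of all genes, and 3 of 32 in KPG1, against 20.6%. An unadjusted edgeR p under 0.05 was found for 2 of 32 and 4 of 32, against 11.4% and 10.8%. *Tbl1xr1*, an exchange factor of the NCoR complex, had 0.42 between KPG1 and KP on the regular diet (adjusted p = 0.787) and -0.43 with the diet in KPG1 (adjusted p = 0.492).

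The 12 histone-modifying coactivators and their relatives split into 5 higher and 7 lower in KP and 6 and 6 in KPG1, with *Carm1*, an arginine methyltransferase, at 41.0, 55.2 and 37.2 CPM in KPG1 and 72.1, 75.9 and 74.4 CPM in KPG1_PPARaDN (0.74, standard error 0.218, adjusted p = 0.42). Among the 8 tested partners of PGC-1, 4 were higher and 4 lower in KP, with *Esrra* at 0.72 (adjusted p = 0.451), and 3 higher and 5 lower in KPG1, with *Esrrg* at 2.00 (adjusted p = 0.513). *Esrrg* was scarce in both groups, at 0.165 to 0.688 CPM in KPG1 and 1.42 to 2.21 CPM in KPG1_PPARaDN. Among the 12 tested partner receptors of RXR, 4 were higher and 8 lower in KP, with the bile acid receptor gene *Nr1h4* at 1.38 (adjusted p = 0.355), and 5 higher and 7 lower in KPG1, with *Rarb* at 1.86 (adjusted p = 0.42), *Rarg* at -0.83 (adjusted p = 0.433) and *Nr1h2* at -0.58 (adjusted p = 0.42). *Nr1h4* was scarce, at 0.394 to 0.870 CPM in KP and 1.39 to 1.81 CPM in KP_PPARaDN. *Rarb* had 0.861 to 1.92 CPM in KPG1 and 2.25 to 8.12 CPM in KPG1_PPARaDN. Of the 8 tested fatty acid and retinoid carriers, 4 were higher and 4 lower in KP and 5 higher and 3 lower in KPG1. Of the coactivators, PGC-1 partners, RXR partners and carriers, 1, 3, 2 and 0 did not overlap between diets in KP, against 13.3% of all genes. In KPG1 these counts were 4, 2, 3 and 2, against 20.6%. For the diet averaged over genotypes, 2, 0, 5 and 1 had an unadjusted edgeR p under 0.05, against 10.1% of all genes. *Fabp1*, the liver fatty acid binding protein, had 0.206, 0.775 and 0.167 CPM in KP_PPARaDN and 10.6, 1.28 and 21.2 CPM in KPG1_PPARaDN (4.83, standard error 1.38, adjusted p = 0.462). Leaving out 1 tumor gave 3.93, without KPG1_PPARaDN tumor 3, to 5.85, without KP_PPARaDN tumor 2. The tumors at 10.6 and 21.2 CPM came from the same mouse, so each of these fits kept that mouse. The tumor of the other KPG1_PPARaDN mouse had 1.28 CPM. DESeq2 called *Fabp1* (adjusted p = 0.00562), and over the alternatives its adjusted p ranged up to 0.903.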

How the data were processed

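RNA of the CD45-negative fraction of 12 tumors was sequenced from poly(A)-selected, stranded TruSeq libraries. Per the labels, the authors used bcl2fastq 2.17, cutadapt 1.4.2, HISAT2 and featureCounts 1.4.4 on the mm10 genome, and deposited whole counts per gene. The strand setting of the counting is not given in the sources used here. The authors also deposited log2 CPM values after TMM scaling, which were not used. The 12 tumor files held the same counts as the combined table. Positions and lengths came from GENCODE M21, which held 96.61% of the gene IDs and 99.747% of the counts.

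Counts were scaled by TMM, filtered with filterByExpr and tested with the quasi-likelihood test of edgeR 4.0.16 in R 4.3.3, fitted jointly to the 12 tumors (residual degrees of freedom 8, common biological coefficient of variation 0.44). P-values were adjusted by Benjamini-Hochberg over 16527 genes. Standard errors are the log2 fold change over the root of the F statistic. DESeq2 1.42.0, limma voom 3.58.1, other scalings and filters, sex, a replicate block, summed mice and each tumor left out were alternatives. Correlations used log2 CPM with a prior count of 2 and 100000 permutations (scipy 1.17.1). Tumors of the same mouse are not independent, and p-values over tumors do not allow for that. The 10 members and the lists were chosen with earlier results of these data known. Beside the members, up to 3 genes of each list and comparison were named, those of largest change among genes with a mean of at least 1 CPM whose groups did not overlap, and the 5 genes most like *Ppara*, *Pparg* and *Ppargc1a*. A list of corepressor genes is not reported here in full.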

Additional observations from a re-analysis of the deposited data

How the results depend on the processing

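Of 151 fits with a count of members, 1 called a member: DESeq2 called 1 with the diet in KP, *Ppara*, where edgeR called 0. Of 71 log2 fold changes recomputed, 70 kept their sign in every alternative. The exception was *Acot1* between genotypes on the regular diet, at -0.80 and at 0.66 with sex as a covariate. DESeq2 called 372 genes with the diet in KP against 1 by edgeR, 197 against 1 in KPG1, 53 against 6 and 160 against 5 between genotypes on the regular and doxycycline diets, 286 against 0 for the interaction, 286 against 3 for the diet averaged, and 39 against 8 for genotype averaged. The other settings gave 0 to 2, 0 to 2, 2 to 10, 2 to 6, 0, 2 to 5 and 3 to 12 genes in the same order, and leaving out each tumor in turn 0 to 1, 0 to 2, 2 to 6, 2 to 10, 0, 2 to 13 and 6 to 11. The causes were not tested. With the replicate number as a block, 0 members were called, and *Ppara* with the diet in KP had a log2 fold change of 2.37 (edgeR, adjusted p = 0.524). The numbers did not pair the tumors: of 18 pairs with the same number, 2 had a correlation of deviations above 0.1, over a range of -0.19 to 0.127. Counts of *Rxrg* were as low as 13 reads, which limits the precision of its values.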
